A study of Drosophila melanogaster with 4 samples.

Results

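Isolated BEAF regions are the stretches of chromatin bound by the insulator protein BEAF that lie more than 20000 bp, midpoint to midpoint, from every other such stretch on the same chromosome arm. They were taken from the authors' combined list of enriched regions on X, 2L, 2R, 3L, 3R and 4 of Drosophila melanogaster. They were chosen by the measured position of each region alone, and 582 of 4869 regions on these 6 arms met it (12.0%), out of 5003 enriched regions on all sequences. The other 4287 regions of the arms serve as the comparison.

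The chromatin came from whole Oregon-R (wild-type) embryos, labelled as 14 to 16 h old, collected from population cages and fixed with 1.8% formaldehyde. It was precipitated with BEAF-HB, a rabbit polyclonal antibody to residues 88 to 282 of the protein, whose targets the labels give as BEAF32A and BEAF42B in one place and BEAF32A and BEAF32B in another. The series holds 2 ChIP and 2 input samples, and 3 lists of regions were used, the 2 replicates having 1 each and the combined set another. Whole embryos mix all cell types, so a region bound strongly in few cells and one bound weakly in many cannot be told apart.

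BEAF (short for boundary element-associated factor) binds DNA directly and was identified at the edge of a heat shock gene domain. It is best known in flies for binding close to the start sites of broadly expressed genes, often in gene-dense chromatin and between genes that point away from each other, and for marking borders between chromatin domains. Genes, start sites and sequence at the isolated regions were not analysed here, because no genome or annotation of the build of the files (FlyBase release 5) was at hand, so regions are named by their release 5 position.

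Isolated regions had low scores, although a minority scored as high as regions elsewhere. The score is the authors' value per region, positive for enrichment and of unstated scale, and it was used to rank and describe regions within a list. Its median was 0.416 in the isolated regions (quartiles 0.223 and 1.58, from 0.00497 to 4.76) and 0.990 in the other regions (quartiles 0.343 and 2.75). The typical isolated region thus stood at the 33.3 percentile of all regions on the arms, and the typical other region at the 52.2 percentile. Positions and scores come from the same 2 ChIP libraries, so these differences are descriptions and carry no test.

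The low-scoring class was the one that differed most in size. Scores under 0.5 were held by 322 isolated regions (55.3%) and by 1539 other regions (35.9%). A score above 2, a level chosen after the values were seen, was reached by 123 isolated regions (21.1%, 95% exact binomial interval 17.9 to 24.7), where the share over all regions of the arms was 33.4%. A score above 4 was reached by 18 isolated regions (3.09%, 1.84 to 4.84), against 4.66% of all regions. These 18 comprised 6 on 3R and 3 each on X, 2L, 2R and 3L.

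**Figure D1:**
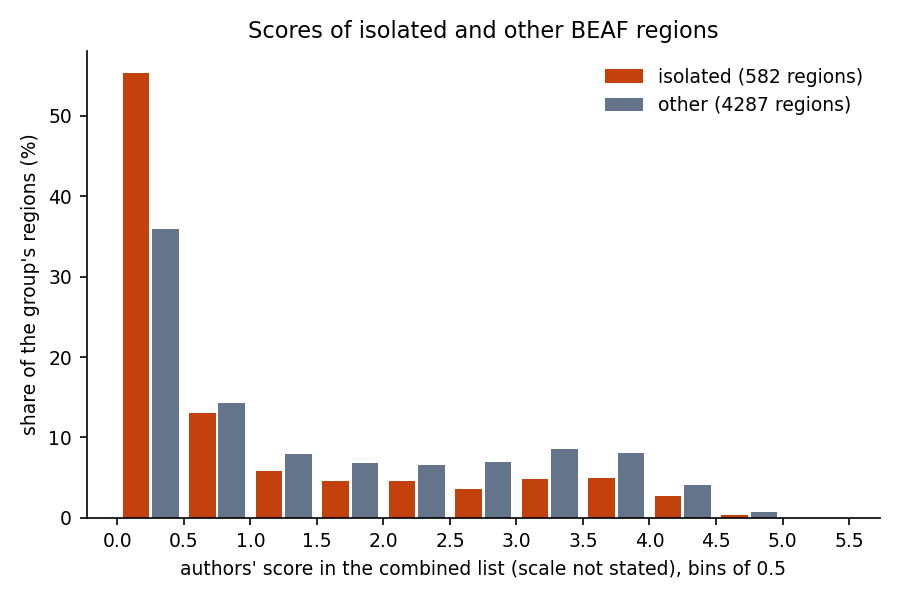
Share of regions (vertical axis, % of each group) by the authors' score in the combined list (horizontal axis, bins of 0.5), for 582 isolated and 4287 other regions on the 6 arms. The bin below 0.5 holds 55.3% of isolated and 35.9% of other regions, and the isolated group has a smaller share in every bin above it.

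The replicate lists gave the same direction for the same regions. In replicate 1, the 431 counterparts of isolated regions had a median score of 0.689, and the 3563 counterparts of other regions 1.45. In replicate 2 the medians were 0.777 over 456 counterparts and 1.54 over 3741. The difference of medians, isolated minus other, was -0.762 ± 0.00210 (SD, n = 2) over the replicates, and -0.575 in the combined list. These are not over the same regions, since the combined list also holds regions found in 1 replicate only (585) or in neither (481). Over regions found in both replicates, the median score in the combined list was 0.868 in isolated and 1.64 in other regions. Why the values differ was not tested. The combined list was made from these libraries, so the replicates are a check on the list and not separate evidence.

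The 10 isolated regions with the highest scores were found in both replicate lists and ranked high in each. They were picked by the combined score, which was made from these libraries, so this is no separate support. Of all 1217 regions of the arms in the highest quartile of the combined score, 1216 (99.9%) were found in both. The first of the 10 was on 2R at 19409644 to 19412568, with a combined score of 4.76, a replicate 1 score of 4.84 and a replicate 2 score of 4.83. It ranked 9 of 4869 in the combined list, 5 of 4068 in replicate 1 and 18 of 4245 in replicate 2. Its surroundings were lopsided, with one neighbour 20439 bp away and the other 126898 bp away.

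On 3L the highest score was at 14623962 to 14626862 (4.54 combined, 4.49 and 4.65 in replicates 1 and 2), 66932 bp from its nearest neighbour. This was the most remote of the 10, whose nearest distances began at 20188 bp. On 2L the highest was at 7883998 to 7887402 (4.44, 4.39 and 4.55), 57974 bp from its nearest neighbour, and 20348934 to 20351666 on the same arm scored 4.27 (4.13 and 4.49) at 65849 bp. The X region at 9248738 to 9252116 scored 4.41 (4.28 and 4.73) and lay 37174 bp from its nearest neighbour. These 4 regions scored above 4 in each list, and in the combined list none had another enriched region within 37174 bp.

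A second X region, 16970102 to 16974138, scored 4.32 (4.33 in replicate 1 and 4.52 in replicate 2). On 3L, 13956542 to 13959676 scored 4.38 (4.37 and 4.50), and on 2R, 3164414 to 3167208 scored 4.37 (4.34 and 4.49). The highest score on 3R was 4.31 at 25416258 to 25418930 (4.24 and 4.41). The remaining one, 3R 16674930 to 16677548, scored 4.28 (4.29 and 4.32), but in the list of replicate 2 its nearest neighbour was only 11562 bp away, a region that the combined list does not hold as enriched. All 10 were between 2619 and 4037 bp wide, and none ranked below 95 in the combined list, 136 in replicate 1 or 157 in replicate 2.

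The score did not fall steadily with distance. Over all regions of the arms the median score was 0.322 in the 60 regions with a neighbour within 2000 bp, 0.934 in the 1894 at 2000 to 5000 bp and 1.31 in the 1534 at 5000 to 10000 bp. It then stood at 0.821 in 532 regions at 10000 to 15000 bp and at 0.539 in 267 regions at 15000 to 20000 bp. Beyond the threshold it was 0.381 at 20000 to 30000 bp (259 regions), 0.446 at 30000 to 50000 bp (194 regions) and 0.435 over 50000 bp (129 regions). Scores were therefore highest at intermediate spacing, and within the isolated class of the combined list it had no steady order with distance (Spearman's rho = 0.03 between nearest distance and score across 582 regions, which share the same libraries).

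When each replicate's regions were measured against their own list, the median was again highest at 5000 to 10000 bp, at 1.60 in replicate 1 and 1.75 in replicate 2. Beyond 20000 bp the lists differed in shape. Replicate 1 fell from 0.847 at 20000 to 30000 bp to 0.745 at 30000 to 50000 bp and 0.584 over 50000 bp. Replicate 2 gave 0.749, 0.865 and 0.622 in the same bins, with no steady order.

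**Figure D2:**
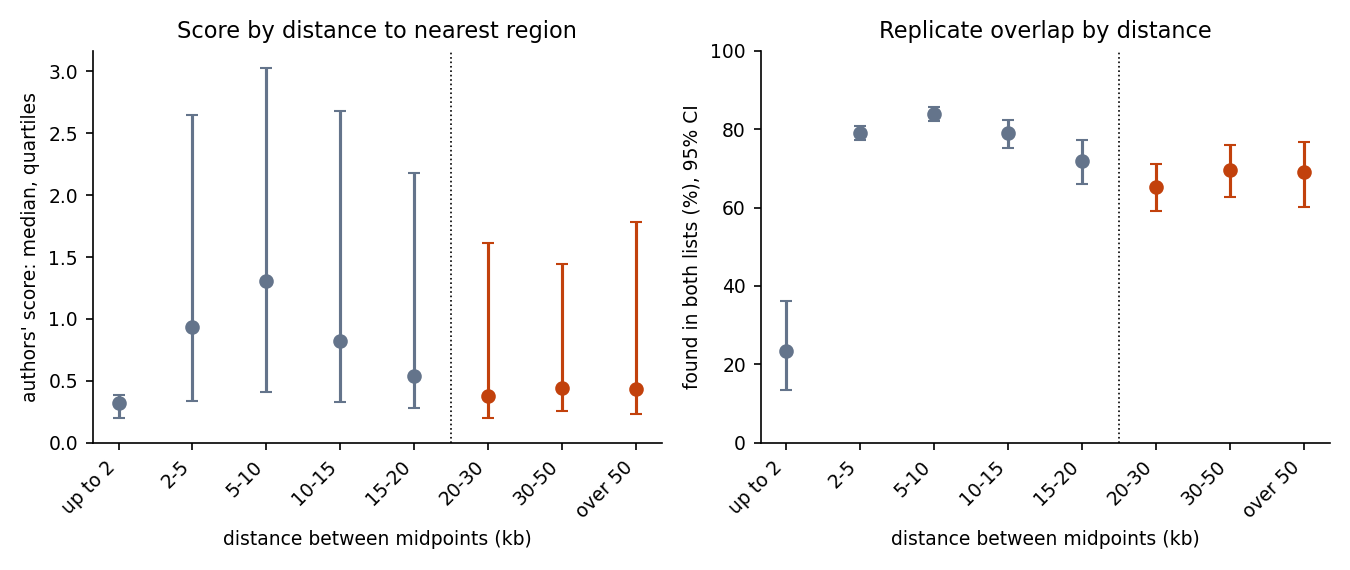
Left, authors' score in the combined list (median with quartiles) and right, share of regions found in both replicate lists (%, with 95% exact binomial interval), by the distance between a region's midpoint and the nearest other midpoint (kb). The dotted line marks 20 kb, with isolated regions to its right, and both measures peak at 5 to 10 kb with a median score of 1.31 and a share of 83.9%.

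A smaller share of isolated than of other regions was found in both replicates. An enriched region of both replicate lists was overlapped by 393 of 582 isolated regions (67.5%, 95% exact binomial interval 63.6 to 71.3), where 78.1% of all regions on the arms were. Among the other regions the share was 79.5% (78.3 to 80.7). Neither list held a counterpart of 88 isolated regions (15.1%, 12.3 to 18.3), against 9.88% of all regions. The remaining 101 were found in 1 replicate, and their median score was 0.171. By replicate, 431 isolated regions were found in replicate 1 and 456 in replicate 2, where the shares over all regions were 82.0% and 86.2%.

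Within bands of score the isolated and the other regions were close in these measures. Bands were the quartiles of the combined score over all regions of the arms. From the lowest band up, median scores were 0.193 and 0.214, 0.464 and 0.488, 1.60 and 1.67, and 3.53 and 3.49, isolated first. Scores within a band were thus near each other but not matched. The lowest band held 240 isolated regions (41.2% of them) and 22.8% of the others. In that lowest quartile 33.8% of isolated regions (27.8 to 40.1) and 31.9% of other regions (29.0 to 34.9) were found in both replicates. In the second quartile the shares were 80.1% (72.7 to 86.3) and 80.9% (78.4 to 83.2). In the third, all 106 isolated regions and 1105 of 1111 others were found in both. In the highest, 89 of 90 isolated regions and all 1127 others were.

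Width followed the same pattern. Isolated regions had a median width of 2024 bp and other regions 2393 bp, and the difference of medians, isolated minus other, over counterparts in the replicate lists was -308 ± 10.3 bp (SD, n = 2). Inside score quartiles the medians were 1705 and 1722 bp in the lowest, 2055 and 2107 bp in the second, 2577 and 2571 bp in the third and 2952 and 2953 bp in the highest, isolated first. Width and score rose together within the isolated class (Spearman's rho = 0.82 across 582 regions).

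**Figure D3:**
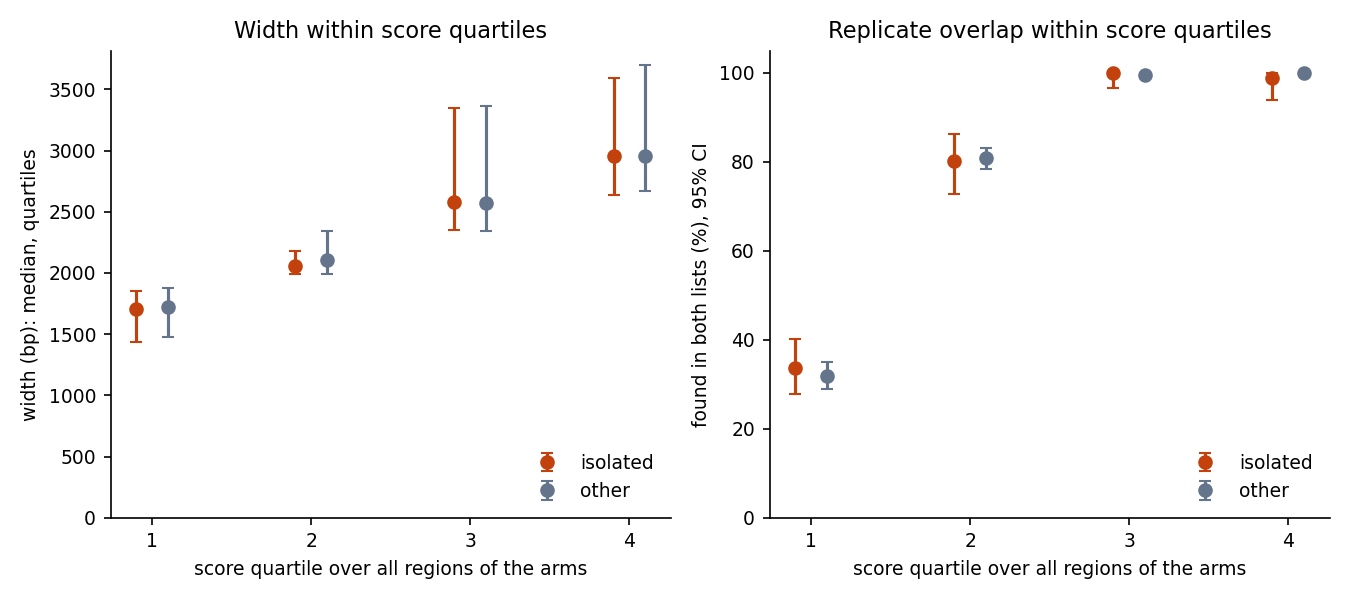
Left, width in the combined list (bp, median with quartiles) and right, share found in both replicate lists (%, with 95% exact binomial interval) for isolated and other regions within each quartile of the combined score (horizontal axis, 1 is lowest). In the highest quartile the median widths are 2952 and 2953 bp, and in the lowest the shares are 33.8% and 31.9%.

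Where an isolated region was found in both lists, its position and score were close in the 2 replicates. Over these 393 regions the replicate midpoints differed by a median of 38 bp (quartiles 15 and 79), and over 3410 other regions by 35 bp (15 and 75.5). The replicate scores of the 393 ranked alike (Spearman's rho = 0.95, against 0.98 over the other regions, each across regions of the same 2 libraries). The replicate 2 score was higher by a median of 0.135, on a scale that may not be the same in both lists.

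**Figure D4:**
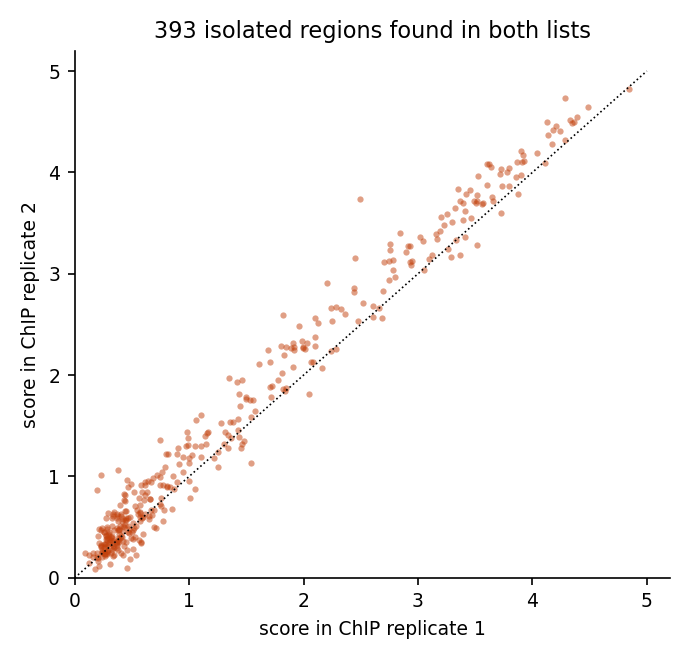
Authors' score in ChIP replicate 1 (horizontal axis) and in ChIP replicate 2 (vertical axis) for the 393 isolated regions found in both lists, 1 point per region, with a dotted line of equal scores. Points lie along the line from near 0 to about 5, slightly above it, with a median difference of 0.135.

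Isolation was also looked up in the replicate lists. Since nearly all regions of these shorter lists overlap a combined region (all but 11 of 4068 in replicate 1 and 28 of 4245 in replicate 2), a member can lose it there only through a split, an added region or a small shift, and the counts are no support for the class. Of 431 isolated regions with a counterpart in replicate 1, 422 (97.9%) were more than 20000 bp from any other region of that list, in which 14.5% of regions met the rule. In replicate 2, 443 of 456 (97.1%) were, where 13.2% of regions met it. Of the 393 found in both lists, 373 were isolated in both (94.9%, 92.2 to 96.9). In the other direction, the rule gave 588 isolated regions in replicate 1, of which 422 (71.8%) were isolated in the combined list too and 163 overlapped a combined region with a closer neighbour. It gave 561 in replicate 2, of which 443 (79.0%) were isolated in the combined list and 115 were not.

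The cases in which isolation was lost in a replicate were few. In replicate 1, 8 of the 9 such cases were combined regions that the replicate list splits into several, and the ninth had a region nearby that the combined list lacks as enriched. In replicate 2, 3 of 13 were split, 9 had a region nearby that the combined list lacks as enriched, and 1 had its known neighbour at 19846 bp, just under the limit. The widest isolated region, at the end of X (11229 bp), was split in both replicates. The X region at 15779178 to 15787870 (8693 bp, score 3.70) was 1 region in replicate 1 and 2 regions in replicate 2. The 2R region at 16552212 to 16561118 (8907 bp, score 3.60) was undivided in both, with replicate widths of 8751 and 8865 bp. Regions over 5000 bp made up 17 of the isolated class (2.92%, 1.71 to 4.64), against 4.19% of all regions. At the other end, 48 isolated regions were narrower than 1302 bp, the narrowest region of either replicate list (8.25%, 6.14 to 10.8), against 6.04% of all regions.

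Distances within the isolated class reached far beyond the threshold. The nearest neighbour was a median of 32013.5 bp away (quartiles 24327.5 and 47403.2) and the farther one 70240 bp. No neighbour lay within 50000 bp of 129 regions (22.2%) or within 100000 bp of 22 (3.78%). For 4 regions at an arm end there is a neighbour on 1 side only, so their isolation rests on that side alone. Enriched regions on other sequences were not counted as neighbours. At the edge of the class, the regions just inside the limit were neighbours of each other on 2L, at 20714058 to 20715330 (score 0.195, in neither replicate) and 20733328 to 20736250 (score 2.29, in both), 20095 bp apart. Just outside it were 3R 20675112 to 20677928 (score 3.18), at 19944 bp, and X 10698916 to 10702744 (score 2.06), at 19926 bp.

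The most remote regions included both strong and weak ones. The largest distance belonged to the last region of 3L, at 24526386 to 24532102, which scored 2.97 in the combined list, 2.94 in replicate 1 and 3.08 in replicate 2. It lay 243230 bp from its only neighbour, and the sequence of the arm, 24.54 Mb long, ends shortly beyond it. At the end of X, the widest isolated region, 22405416 to 22416644, lay 136759 bp from its only neighbour and scored 3.47, 3.50 and 3.69. Both replicates split it, so the last 2 scores are those of a part, 5979 bp wide in replicate 1 and 6293 bp in replicate 2. In those lists the part had a neighbour 5971 and 5576 bp away. With neighbours on both sides, the most remote was 2L 17962160 to 17964634, 162157 and 193092 bp away from them, with scores of 2.85, 2.80 and 2.97. All 3 of these regions scored above 2 in each list.

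Others were weaker. On 3L, 18452706 to 18455256 scored 0.981 (0.949 and 1.19 in replicates 1 and 2) at 156850 bp, and 13189774 to 13191660 scored 0.307 (0.369 and 0.328) at 150625 bp. On 3R, 1980046 to 1982094 scored 0.415 (0.331 and 0.627) at 141386 bp. The most remote region of 2R, 13149382 to 13150628, scored 0.329 at 131946 bp and was found in replicate 2 only (0.611). Of the 22 regions more than 100000 bp from any neighbour, 15 were found in both replicates, 4 in 1 and 3 in neither, and 5 scored above 2. Over all isolated regions 67.5% were found in both and 21.1% scored above 2, and over all regions of the arms 78.1% and 33.4%.

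Isolated regions occurred on all 6 arms. They made up 15.3% of the regions on 2L (119 of 777, 95% exact binomial interval 12.9 to 18.0) and 14.2% on 3L (126 of 890, 11.9 to 16.6). The shares were 11.8% on 3R (130 of 1098, 9.99 to 13.9), 10.3% on 2R (99 of 959, 8.47 to 12.4) and 9.53% on X (103 of 1081, 7.84 to 11.4). Per length the large arms differed little, from 4.59 isolated regions per Mb on X to 5.17 on 2L, whereas the other regions ranged from 28.6 per Mb on 2L to 43.6 on X. When the rule was applied to each replicate's own list, the shares were 16.6 ± 2.02% on 3L, 16.4 ± 0.289% on 2L, 13.9 ± 1.26% on 3R, 12.1 ± 0.800% on 2R and 11.2 ± 0.288% on X (SD, n = 2). The replicate values of 2L and 3L overlapped each other, whereas those of 2R (12.6 and 11.5%) lay just above those of X (11.4 and 11.03%).

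**Figure D5:**
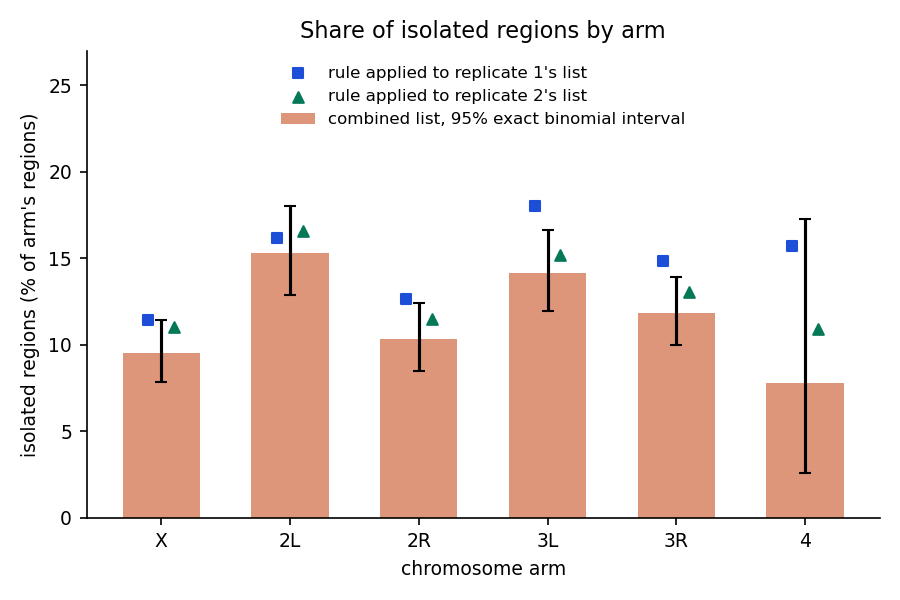
Isolated regions as a share of an arm's enriched regions (vertical axis, %) for the 6 arms, as bars with 95% exact binomial intervals from the combined list and as points from the rule applied to each replicate's own list. Bars run from 7.81% on chromosome 4 and 9.53% on X to 15.3% on 2L. The bar of chromosome 4 rests on 5 of 64 regions (interval 2.59 to 17.3). The rule gave 15.7% there in replicate 1 and 10.9% in replicate 2.

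The median score was lower in isolated than in other regions on each of the 5 large arms. The difference ranged from -0.351 on 3L (0.483 in 126 isolated regions, 0.834 in the others) to -0.929 on 2L (0.303 in 119, 1.23 in the others). It was -0.625 on X, -0.588 on 3R and -0.527 on 2R. On chromosome 4 the 5 isolated regions had the higher median (1.25, against 0.960 in 59 others), a comparison that rests on very few regions.

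The 5 isolated regions of chromosome 4, a small chromosome rich in heterochromatin, varied widely. The strongest was 1046218 to 1054820, 8603 bp wide, scoring 3.47 combined, 3.41 in replicate 1 and 3.61 in replicate 2. The regions at 853886 to 857296 and 149282 to 153740 scored 1.25 (1.34 and 1.28) and 0.937 (0.996 and 0.954). Neither replicate held 742290 to 743992 (0.155) or 1348086 to 1349086 (3.18). The last of these is 1001 bp wide, the least in the combined list, and is the last region of its arm. Its score was the highest of any isolated region found in neither replicate, followed by 0.857 at 1058470 to 1059578 on 2R and 0.626 at 21815696 to 21817136 on X.

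Some isolated regions followed each other directly. The neighbour of an isolated region already has a wide space on 1 side, which the rule requires of members, so nothing is read from how often this occurred. An isolated region had another one as its direct neighbour in 349 of 582 cases (60.0%), where 22.0% of all regions on the arms lay beside an isolated one, and 233 stood singly between regions of the other class. There were 78 runs of 2, 31 of 3, 11 of 4, 7 of 5, 2 of 6 and 1 of 9 consecutive isolated regions. The run of 9 spanned 297 kb of X, from 9530390 to 9827018. It included 2 strong neighbours, 9551574 to 9554220 (score 3.80, with 3.72 and 3.98 in replicates 1 and 2) and 9577838 to 9582658 (3.35, with 3.25 and 3.59), among 7 regions that scored between 0.159 and 0.528. Of the 9, 5 were found in both replicates, where 67.5% of all isolated regions and 78.1% of all regions on the arms were. The runs described were picked after their values were seen, so nothing is read from such counts. The 1-Mb window that holds this run, 9000001 to 10000000 on X, had the most isolated regions of all 118 windows, 14 of its 45, and the window 14000001 to 15000000 on X was the only one with none.

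A run of 5 on 2R spanned 547 kb, from 15514352 to 16061690. It held 1 strong region, 15555432 to 15559146 (2.95, with 2.76 and 3.24), and 4 that scored between 0.123 and 0.403. Of its 5 regions 2 were found in both replicates, too few to set against the shares given above. A run of 5 on 3L, from 22372446 to 22663622, held none above 0.312. Isolated regions beside another isolated one had a median score of 0.366, and those between regions of the other class had 0.505. The other regions directly beside an isolated one scored a median of 0.889 (722 regions), near the 1.02 of those that were not (3565 regions).

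The share of isolated regions varied along the arms, with no pattern common to all. When each of the 5 large arms was cut into 10 equal bins, they made up 18.3% of regions in the bin next to the centromere (72 of 393) and between 8.10 and 14.2% in the other 9 bins. The bin next to the centromere had the highest share of its arm on 3L (34.7%, 17 of 49) and on 2R (19.5%, 15 of 77). On 2L it held 23.9% (17 of 71), below the 29.7% (11 of 37) of a bin further out. On X it held 13.4% (9 of 67), below 17.7% (17 of 96) and 16.9% (14 of 83) in other bins. On 3R it held 10.9% (14 of 129), below the 11.8% of the whole arm. The first Mb of 2R, at the centromere, held 11 isolated regions among 26. The strongest of these 11 was 357630 to 360292, which scored 1.72 in the combined list, 1.71 in replicate 1 and 1.79 in replicate 2.

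The rule leaves a wide space between an isolated region and each of its neighbours, so isolated regions border many gaps by construction. At least 1 isolated region stood beside 63.5% of the 1363 gaps over 20 kb, 68.2% of the 233 over 100 kb and 60.5% of the 38 over 200 kb, shares close to each other. Of the 233 gaps over 100 kb between adjacent regions, 41 had an isolated region on both sides, 118 on 1 side and 74 on neither. The 2R gap of 402 kb from 15559147 to 15960725 lay between isolated regions scoring 2.95 and 0.366. The longest gap on the arms, 478 kb on 2L, had none at its edges, since the regions there (scores 2.11 and 1.72) each had another region close by on the far side.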

How the data were processed

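The authors deposited 3 region lists, 1 per ChIP replicate and 1 for the combined set, with coordinates, an enrichment or depletion type and a score per region. The build is FlyBase release 5, per the file headers. The submitters' processing notes name Bowtie 0.12.7. How peaks were called, how replicates were combined and what scale the deposited score has: each is not given in the sources used here. No read counts are given, so the depth is unknown, and intervals cover counting of regions only. Samples were grouped by title, since the free-text descriptions of ChIP replicate 1 and input replicate 1 go against theirs. Nothing says whether the replicates came from separate embryo collections.

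Midpoints are the mean of start and end. Regions overlapped if they shared 1 bp or more, and the counterpart was the replicate region with the longest overlap. Shares carry exact (Clopper-Pearson) 95% binomial intervals. No test was made, because the members were chosen from the positions these libraries gave. The members and lists were chosen with earlier results of these data known. Named regions are, per arm, those with the highest score and the largest nearest distance; over all arms, the 10 highest scores, 5 largest distances, 3 widest, 3 highest-scoring in neither replicate, and 2 on each side of the limit. Runs, windows and chromosome 4 regions were added after their values were seen. Calculations used Python 3.11.15, numpy 2.4.6, pandas 2.3.3 and scipy 1.17.1. The rule was checked on simulated lists with spacings well away from the limit, so borderline and split regions were not checked. The planned description of sequence and annotation was not made, because the gene table at hand is of another assembly. Alternatives were other distances, edges in place of midpoints, each replicate's list, regions found in both, the higher-scoring 50%, depleted rows as neighbours and a reciprocal overlap of 50%.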

Additional observations from a re-analysis of the deposited data

How the results depend on the processing

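There were 41 alternative values under 9 settings. Of these, 26 stayed within the spread or counting interval of the value reported (for counts, within 1.5 times), and 15 moved. None of the score and width differences changed sign. Counts and shares cannot be negative, so for them no change of direction was possible. The spread here was the SD of the values obtained when the rule was applied to each replicate's own list. It was 0.0344 for the score difference and 35.7 bp for the width difference, wider than the SDs over counterparts given above. With more than 30000 bp the class had 323 regions, and its median score and width differed from those of other regions by -0.489 and -322 bp. The next settings shortened the list before the rule was applied, so regions with a close neighbour in the full list could become isolated. With only regions found in both replicates, 581 were isolated, against 393 isolated regions found in both above. Their share found in both was 100% by construction, and the differences were -0.732 and -186 bp. Among the higher-scoring 50% of regions 581 were isolated too, whereas the third and highest quartiles above held 106 and 90 isolated regions. There the share was 99.3%, the score difference -0.208 and the width difference -14 bp. Widths were thus nearly equal in the higher-scoring 50%, but not among regions found in both replicates. With a single replicate's list in place of the combined one, the share found in the other replicate ranged from 84.7 to 91.2%, the score difference from -0.773 to -0.724 and the width difference from -315 to -264.5 bp. No paired analysis was possible because the input samples have no list here and no result comes from a test. The depth behind each region is unknown.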

Other observations

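Rows outside the rule also lay near isolated regions. The combined list types 19 regions on the 6 arms as depleted, and 9 isolated regions had 1 of them within 20000 bp. Replicate regions with no combined enriched region numbered 11 in replicate 1 and 28 in replicate 2, and 12 isolated regions had 1 of these within 20000 bp. Either kind was near 14 of the 582 isolated regions (2.41%). These counts were not made for the other regions, so nothing particular to isolated regions is read from them.

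Among the 88 isolated regions found in neither replicate, 40 were narrower than 1302 bp, the narrowest region of either replicate list (45.5%, 95% exact binomial interval 34.8 to 56.4), and among 393 such other regions 199 were (50.6%, 45.6 to 55.7).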
